A study of Mus musculus with 72 samples.

Results

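The genes described here are the enzymes that cut and crosslink the extracellular matrix, and their tissue inhibitors, in RNA-seq counts from chambers of the adult mouse heart. A row of the count table was taken as a member when its gene is protein coding and its symbol is Mmp, Timp or Adamts followed by a number, or Lox or Loxl1 to Loxl4. These names gave 51 members of 24237 genes: 23 Mmp, 4 Timp, 19 Adamts and 5 Lox genes. The rule used names only and no measured value, but it was set with earlier results of these data known. The 72 libraries were made from C57BL/6J mice and fall into 24 groups of 3, by exposure or genotype, sex and chamber. Naive Ahr+/+ mice were the controls, and by the methods Ahr+/+ dams without TCDD received corn oil by gavage. Ahr-/- mice lack the aryl hydrocarbon receptor (AHR), a ligand-activated transcription factor, in every cell and were not exposed. By the methods they came from Ahr-/- parents and their dams were untreated. Their own genotype, that of the dam and the gavage therefore cannot be told apart. Low- and high-dose mice were Ahr+/+ animals whose dams received TCDD, a dioxin that binds AHR, by gavage during pregnancy, at 0.1 or 1 µg/kg by the study's methods. The labels name 3 gavage times, the first on embryonic day 13.5 and the last on day 18.5, whereas the methods give earlier days. The labels give these doses as 100 and 1000 with no unit, and name TCDD also for naive and Ahr-/- samples. The animals were 10 months old by the methods and 9 months old by the labels. Right atrium, left atrium and ventricle came from the same hearts, and the labels do not say which libraries share a heart, so the libraries of different chambers are not independent. The labels name no litters either, so libraries from pups of the same dam cannot be told apart. P-values here measure the spread between these libraries.

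Matrix metalloproteinases (Mmp genes) are zinc proteases, secreted or tied to the membrane, that cut collagens, gelatins, proteoglycans and other matrix proteins. Tissue inhibitors of metalloproteinases (Timp genes) bind the active site of these enzymes, and TIMP3 also inhibits several ADAMTS proteases. ADAMTS enzymes trim procollagens, split proteoglycans such as versican and aggrecan, or cleave single substrates such as von Willebrand factor. Lysyl oxidases (Lox and Loxl genes) oxidize lysines of collagen and elastin, the first step of the crosslinks that stiffen a matrix. In the heart these genes are known for remodelling after injury and under pressure load.

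Not all libraries carried the genes of their labels, which bears on every result below. Values for this check are CPM, counts scaled to a common total of the whole library, and levels of the members further on are CPM also scaled by TMM, which evens out differences in composition. Myl4, an atrial myosin light chain, was at 621 to 5200 CPM in 40 of the libraries labelled atrium and at 2.21 to 48.7 CPM in the other 8. It was at 0.626 to 193 CPM in 19 libraries labelled ventricle and at 675 to 3530 CPM in the other 5. Xist and 4 Y-linked genes went against the labelled sex in 8 libraries. In all, 17 libraries went against a label, 12 of them among the 24 libraries numbered 49 to 72. The 55 others are called the libraries within their labels: 18 of right atrium, 18 of left atrium and 19 of ventricle. Myl2, a ventricular myosin light chain, was at 8.04 to 5530 CPM (median 2020) in atria within the Myl4 label and at 2730 to 10900 (4240) in such ventricles, so that many atria within labels also held a ventricular transcript at high level. Main values use all libraries as labelled. Values without the 17 are given as values within labels, and for comparisons of one sex they come from one fit of all remaining libraries of a chamber, not from a fit of 2 groups. The division of right from left is less sure still: Bmp10, a gene of right atrial muscle, was under 50 CPM in 10 libraries labelled right atrium and over it in 5 labelled left atrium. The labels call the samples cardiomyocytes, yet markers of fibroblasts, endothelium and macrophages were present in all chambers. Ahr itself had a median of 14.2 CPM in the 18 naive libraries (8.59 to 30.8) and 5.05 CPM in the 18 Ahr-/- libraries (2.00 to 9.23), and the position of its remaining reads was not analysed here. Library totals ran from 11873417 to 28789382 counts.

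The promoters of 2 sets of members are shown because one motif set a group of Mmp genes apart and the other is the core bound by AHR. A RefSeq window of GRCm38.p6 was found for 33 of the 51 members, 36 windows in all, and the 250 bases before each start were searched. The AP-1 motif TGANTCA, which reads the same on both strands, was in 8 of these windows (22.2%), against 6.75% of 32851 windows of all genes. All 8 belong to the 10 Mmp genes that lie together on chromosome 9 within 427.1 kb, and the windows of the other two, Mmp8 and Mmp27, do not hold these letters. The AHR core GCGTG, on either strand, was in 13 member windows (36.1%) against 28.2% of all, among them those of Timp1, Timp2 and Timp3. Only the window of Mmp7 held both motifs, and their letters did not overlap there. The TATA box TATAAA was searched as well. On either strand it was in 9 member windows (25%) against 12.4% of all, mostly those of the same cluster. A match describes letters and is no measured site. The first set gives 3 genes of the cluster with counts in most libraries: Mmp3 (chr9:7445572-7445821, + strand), Mmp10 (chr9:7502092-7502341, +) and Mmp13 (chr9:7272264-7272513, +). Capitals mark TGANTCA.
Mmp3: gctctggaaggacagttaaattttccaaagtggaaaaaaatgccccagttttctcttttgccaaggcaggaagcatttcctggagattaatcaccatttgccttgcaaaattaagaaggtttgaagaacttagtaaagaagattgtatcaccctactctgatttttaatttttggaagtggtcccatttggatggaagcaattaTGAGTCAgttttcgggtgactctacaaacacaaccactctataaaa
Mmp10: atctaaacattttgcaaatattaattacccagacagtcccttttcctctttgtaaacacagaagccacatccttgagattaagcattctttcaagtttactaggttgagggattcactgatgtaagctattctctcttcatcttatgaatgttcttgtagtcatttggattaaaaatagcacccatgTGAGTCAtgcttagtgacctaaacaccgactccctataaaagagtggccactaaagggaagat
Mmp13: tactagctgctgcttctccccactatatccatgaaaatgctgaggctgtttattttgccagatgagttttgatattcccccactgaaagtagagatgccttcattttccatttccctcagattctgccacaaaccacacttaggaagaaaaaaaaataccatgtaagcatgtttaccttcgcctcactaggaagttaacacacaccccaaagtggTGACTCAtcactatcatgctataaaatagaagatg

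The motif lies 46 to 40 bases before the start in Mmp3, 63 to 57 in Mmp10 and 35 to 29 in Mmp13. The second set gives the 3 inhibitors with GCGTG, which include the members of highest level: Timp1 (chrX:20869916-20870165, +), Timp2 (chr11:118355412-118355661, - strand) and Timp3 (chr10:86300162-86300411, +). Capitals mark GCGTG, which starts 206, 113 and 69 bases before the start in this order.
Timp1: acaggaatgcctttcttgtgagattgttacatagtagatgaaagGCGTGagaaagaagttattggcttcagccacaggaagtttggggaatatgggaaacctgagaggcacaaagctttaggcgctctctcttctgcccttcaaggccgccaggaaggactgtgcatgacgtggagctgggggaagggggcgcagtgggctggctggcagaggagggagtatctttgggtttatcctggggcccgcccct
Timp2: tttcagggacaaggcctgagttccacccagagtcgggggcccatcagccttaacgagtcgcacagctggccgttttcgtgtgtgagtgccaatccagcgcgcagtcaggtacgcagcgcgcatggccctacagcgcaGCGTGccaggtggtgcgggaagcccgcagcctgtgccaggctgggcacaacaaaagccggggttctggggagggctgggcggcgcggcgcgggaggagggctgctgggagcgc
Timp3: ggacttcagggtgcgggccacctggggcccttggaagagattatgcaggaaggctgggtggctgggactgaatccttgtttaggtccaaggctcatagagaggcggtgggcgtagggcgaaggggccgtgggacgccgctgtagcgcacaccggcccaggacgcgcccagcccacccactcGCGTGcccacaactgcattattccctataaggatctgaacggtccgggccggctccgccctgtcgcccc

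Inhibitors held most of the reads. The 4 Timp genes took 57.3% of all counts of the members, the 23 Mmp genes 21.2%, the 19 Adamts genes 15.0% and the 5 Lox genes 6.47%. Levels between genes are compared as mean CPM per kb of exon over the 72 libraries. By the study's methods reads were counted on coding regions, and exons also hold bases outside them, so these orders are approximate. Timp3 led with 69.8 and Timp2 followed with 51.2, while Timp1 stood at 6.88 and Timp4, a Timp known for its cardiac expression, at 4.60. The order depends on the length used: per kb of coding sequence Timp4 moves from rank 12 to rank 4, and Timp3 and Timp2 stay first and second. Among proteases, Mmp15, a membrane-bound metalloproteinase, had 22.1 and the gelatinase Mmp2 21.1, well above the stromelysin Mmp3 with 9.42 and the membrane-bound collagenase Mmp14 with 6.68. By CPM without a length Mmp14 was above Mmp3 in most libraries, so the order of this pair rests on the length. The leading Adamts genes were the versican-cleaving Adamts1 (7.06), the von Willebrand factor protease Adamts13 (4.62) and the procollagen N-proteinase Adamts2 (3.45). Loxl1 (7.82), known for elastic fibers, and Loxl2 (6.77) were above Loxl3 (4.15) and Lox (1.86).

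**Figure D1:**
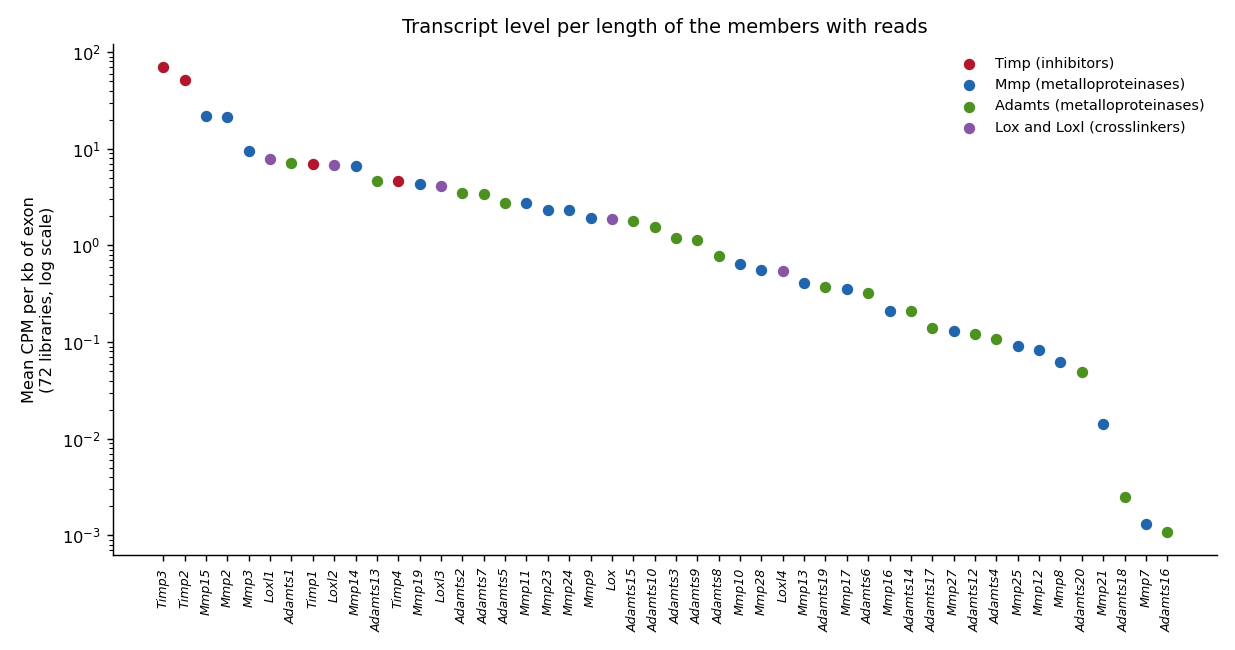
Mean CPM per kb of exon over 72 libraries (log scale) for the 48 members with any count, colored by family. Timp3 and Timp2 stand above all proteases and crosslinkers, and Adamts16, Mmp7 and Adamts18 stand at the low end.

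Several proteases were at or near absence. Mmp1a, Mmp1b and the enamel protease Mmp20 had 0 counts in all 72 libraries. By counting error alone, 0 counts in a single library allow an expected count of up to 3, and 0 in all 72 set a tighter limit. Mmp7 had 2 counts in a single library, Adamts16 had 12 counts in 7 libraries, Adamts18 had 39 in 15 and Mmp21 had 55 in 18. A median of at least 1 CPM was reached by 36 members, and 44 passed the filter on low counts in the fit of all libraries. Reads of overlapping genes cannot be assigned where the counting did not use strand, which is not stated: 21.3% of the exonic bases of Timp3 overlap Syn3, 22.3% of those of Mmp19 overlap Tmem198b, 13.6% of those of Mmp24 overlap BC029722 and 11.6% of those of Loxl3 overlap Htra2, each on the opposite strand.

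Most calls lay between chambers, which are also the larger groups. In edgeR's quasi-likelihood fit of all 72 libraries (24 against 24, averaged over groups and sexes), 22 of 44 members differed between ventricle and right atrium at a Benjamini-Hochberg adjusted p under 0.05, 20 lower and 2 higher in ventricle, against 29.9% of all genes called, 16.3% lower and 13.6% higher. Between ventricle and left atrium 17 members were lower and 0 higher, against 19.4% of all genes called, 12.0% lower and 7.39% higher. In the libraries within their labels, 32 members differed from right atrium (27 lower and 5 higher, against 46.8% of all genes, 24.9% lower and 21.9% higher) and 30 from left atrium (25 lower and 5 higher, against 43.5%, 23.0% lower and 20.6% higher). The median log2 fold change of the members was -0.46 against right atrium and -0.40 against left atrium, and -0.74 and -0.70 within the labels, where the median of all genes was -0.07 and -0.05. Scaling by library size only moves the median of all genes by -0.20 and -0.15 and gives 30 and 20 calls (38.1% and 25.1% of all genes), of which 1 (Timp4) and 0 are higher in ventricle. In bulk tissue, fewer cells of a type and less RNA per cell cannot be told apart.

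All of the inhibitors but Timp4 were lower in ventricle. Timp2, which is also needed to activate pro-MMP2 at the cell surface, had 149 to 334 CPM (median 241) in right atrium, 190 to 327 (248) in left atrium and 68.6 to 159 (118) in ventricle, in the libraries within their labels. These ventricles overlapped the lowest right atrium and no left atrium. Its log2 fold change against right atrium was -0.66 ± 0.14 (SE) over all libraries (edgeR, Benjamini-Hochberg adjusted p = 0.000525) and -1.06 ± 0.09 within labels (edgeR, adjusted p = 6.94e-12). Timp1, an inducible inhibitor, had medians of 8.16, 7.61 and 2.45 CPM in right atrium, left atrium and ventricle within labels, and its difference from right atrium was -1.44 ± 0.24 over all libraries (edgeR, adjusted p = 1.83e-05) and -1.69 ± 0.26 within labels. Timp3, which is bound to the matrix, had medians of 669, 645 and 388 CPM. Its ranges of 379 to 1730, 316 to 1060 and 166 to 720 overlapped, with a log2 fold change against right atrium of -0.52 ± 0.13 over all libraries (edgeR, adjusted p = 0.00271) and -0.85 ± 0.11 within labels.

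Timp4 went the other way. Its medians were 17.3 CPM in right atrium (4.59 to 40.2), 21.4 in left atrium (2.12 to 47.8) and 37.4 in ventricle (18.9 to 60.2), and all 3 ranges overlapped. It was higher in ventricle than right atrium by 0.72 ± 0.21 over all libraries (edgeR, adjusted p = 0.00771) and by 1.30 ± 0.25 within labels (edgeR, adjusted p = 7.3e-05). Against left atrium the difference passed within labels (0.82 ± 0.24, edgeR adjusted p = 0.00546), while over all libraries it was 0.37 ± 0.21 with an adjusted p of 0.202.

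**Figure D2:**
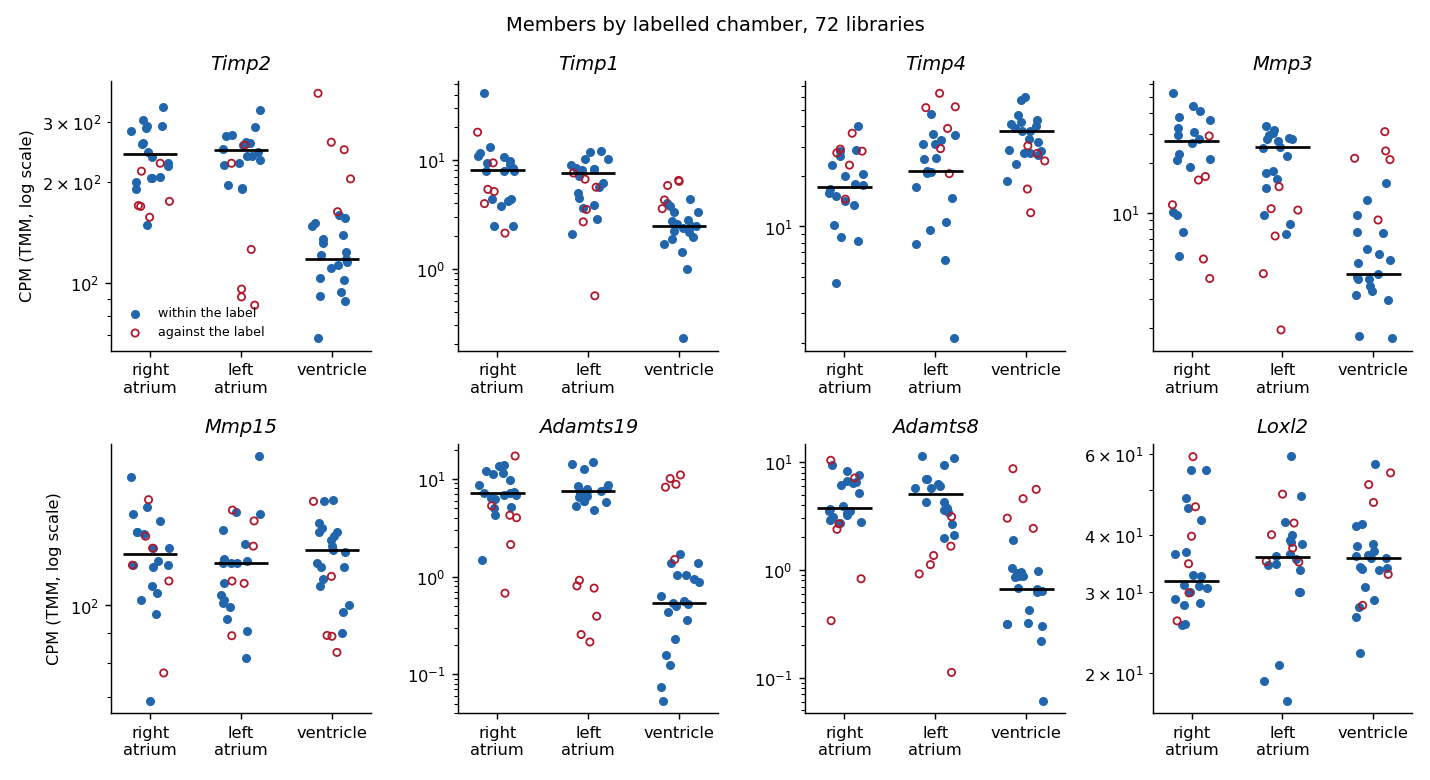
TMM-scaled CPM (log scale) of 8 members in each of the 72 libraries by labelled chamber, filled where the library is within its label and open red where it goes against it, with lines at the medians of the filled points. Filled points of Timp2, Timp1, Mmp3, Adamts19 and Adamts8 sit lower in ventricle, Timp4 higher, and Mmp15 and Loxl2 at like levels (medians 118 to 124 and 31.8 to 35.8 CPM).

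Among the Adamts genes tested, Adamts19 and Adamts8 had the widest gaps between ventricle and either atrium, over all libraries and within labels. Adamts19, a protease of heart valves whose substrate is not established, had 1.49 to 13.8 CPM (median 7.17) in right atrium, 4.80 to 15.1 (7.46) in left atrium and 0.053 to 1.70 (0.543) in ventricle within labels. Only the lowest right atrium reached the ventricular range. Its log2 fold change against right atrium was -3.71 ± 0.32 within labels, a ratio of 0.0767 (edgeR, Benjamini-Hochberg adjusted p = 2.03e-11), and -2.12 ± 0.44 over all libraries (edgeR, adjusted p = 0.000348). Adamts8, first known as an inhibitor of vessel growth, had 2.74 to 9.36 CPM, 1.97 to 11.4 CPM and 0.0606 to 1.90 CPM in the same order, with no overlap between ventricles and atria. Adamts15, which lies next to Adamts8 on chromosome 9 and cleaves versican, differed by -0.87 ± 0.15 over all libraries (edgeR, adjusted p = 2.34e-05) and -1.12 ± 0.13 within labels.

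Members of the chromosome 9 cluster did not share a level. Mmp3 had medians of 27.2, 24.9 and 4.29 CPM in right atrium, left atrium and ventricle within labels, and ventricles at 1.74 to 15.1 overlapped the lower atria, which began at 5.50 and 7.49. Its log2 fold change against right atrium was -1.56 ± 0.30 over all libraries (edgeR, adjusted p = 0.000147) and -2.28 ± 0.32 within labels. Its neighbor Mmp10, a second stromelysin, had medians of 1.75, 1.35 and 0.246 CPM and differed by -1.69 ± 0.37 over all libraries (edgeR, adjusted p = 0.000514) and -2.45 ± 0.41 within labels. Mmp27 had medians of 0.355 and 0.417 CPM in the atria and 0 in ventricle, at a few reads per library (-2.56 ± 0.53 over all libraries, edgeR adjusted p = 0.00033, and -3.16 ± 0.60 within labels). Over all libraries this was the widest gap of any tested member. The collagenase Mmp13 of the same cluster passed in neither chamber comparison, with -0.54 ± 0.35 over all libraries and -0.83 ± 0.38 within labels (edgeR, adjusted p = 0.251 and 0.0727). Mmp3, Mmp10 and Mmp13 hold the AP-1 letters printed above and Mmp27 does not. A link between these letters and the chamber differences was not tested.

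**Figure D3:**
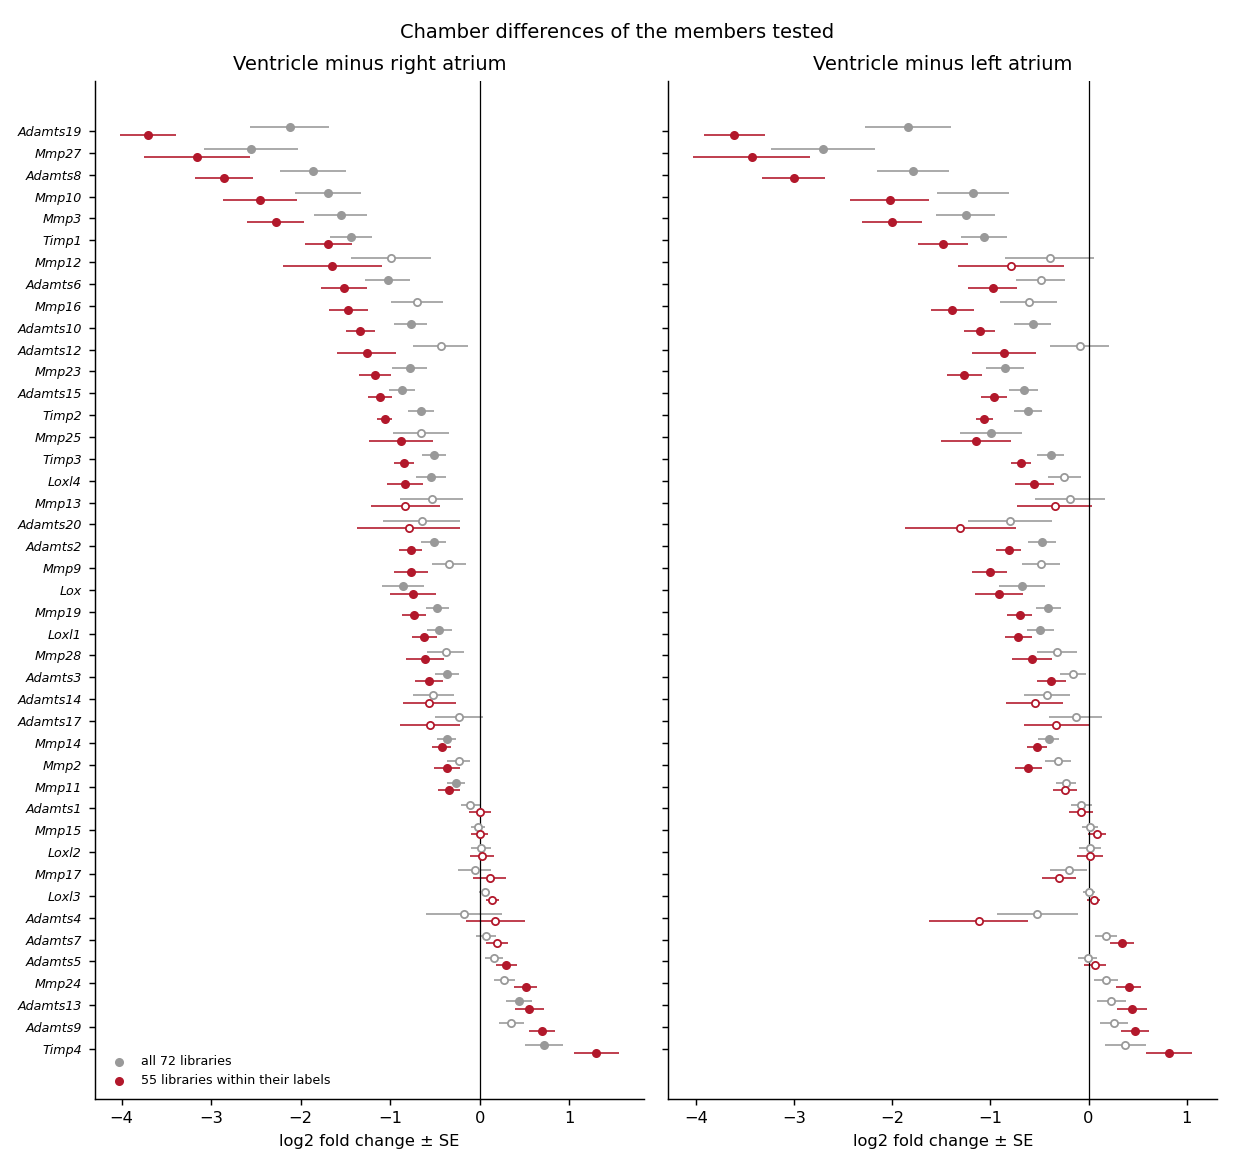
Log2 fold change ± SE of 43 members, ventricle minus right or left atrium, over all 72 libraries (gray) and the 55 within their labels (red), filled where the adjusted p is under 0.05. Points spread from Adamts19 and Mmp27 on the left to Timp4 on the right, and most red points lie farther from 0 than gray ones.

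Membrane-bound proteases were divided. Mmp15 had medians of 122, 118 and 124 CPM within labels and was called only when libraries were scaled by size alone, as lower than in right atrium. Mmp14, an activator of pro-MMP2, was lower in ventricle than right atrium over all libraries (-0.37 ± 0.11, edgeR adjusted p = 0.00784) and within labels (-0.43 ± 0.10). Mmp24, another membrane type, was higher within labels by 0.51 ± 0.13 (edgeR, adjusted p = 0.0016) and not called over all libraries (0.27 ± 0.12, edgeR adjusted p = 0.0737). Adamts9 and Adamts13 were likewise higher in ventricle than in both atria within labels, with medians of 13.0, 14.6 and 20.0 CPM and of 20.1, 20.6 and 23.7 CPM, and Adamts13 was called against right atrium also over all libraries (0.43 ± 0.15, edgeR adjusted p = 0.0212), except with scaling by library size. The 4 members higher than in both atria within labels were Timp4, Adamts9, Adamts13 and Mmp24. Lower than in both were 16 members over all libraries and 25 within labels.

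Crosslinkers were either lower in ventricle or not called. Lox, Loxl1 and Loxl4 were lower in ventricle than right atrium (-0.86 ± 0.23, -0.45 ± 0.14 and -0.54 ± 0.17, edgeR adjusted p = 0.00446, 0.00962 and 0.0123). Within labels these were -0.75 ± 0.25, -0.62 ± 0.14 and -0.84 ± 0.20, all called. Loxl2 had medians of 31.8, 35.8 and 35.6 CPM and Loxl3 of 18.5, 19.7 and 18.3 CPM, and neither was called, also with scaling by library size. In the naive libraries alone no member was called by edgeR (0.00645% and 0% of all 15507 genes against right and left atrium). An unadjusted p under 0.05 was found in 12 and 5 members, against 19.4% and 13.0% of all genes. Naive libraries within their labels gave 10 members against each atrium (13.6% and 10.8% of all genes called), among them Adamts19, Adamts8 and Timp2, with Timp4 the only one higher, against right atrium. Ratios of ventricular to atrial medians within labels lay in the same direction in naive, Ahr-/-, low-dose and high-dose hearts for Timp2 (0.385 to 0.496), Mmp3 (0.132 to 0.237) and Timp4 (1.61 to 3.08).

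Between right and left atrium no member was called by edgeR over all libraries or within labels (0.00599% and 0.00572% of all genes), and 1 and 3 members had an unadjusted p under 0.05, against 3.20% and 4.11% of all genes. With the labels of side in doubt by Bmp10, a difference between the atria was not detectable here and is not shown to be absent.

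Markers of other cells moved with the chambers. The summed level of all 8 fibroblast markers was 3960 to 8180 CPM in right atrium, 4120 to 8710 in left atrium and 1780 to 3390 in ventricle within labels, with no overlap. The 6 epicardial and mesothelial markers had medians of 155, 106 and 17.3 CPM, the 6 macrophage and monocyte markers 544, 469 and 254, and the 5 smooth muscle markers 324, 367 and 202. Medians of the 6 endothelial markers were 770, 740 and 753 CPM, and those of the 8 cardiomyocyte markers 48000, 50300 and 61400. Adipocyte markers (6 of 6) had medians of 34.2, 85.5 and 1.77 CPM. The 5 lung epithelium markers had medians of 0.0532, 0.0636 and 0 CPM with up to 2170 in a right atrium, and the 6 neutrophil markers medians of 2.16, 1.06 and 1.60 CPM with up to 632 in a left atrium. Most of these highest sums were single genes, Scgb1a1 (up to 2060 CPM in right atrium) and Ltf (up to 628 in left atrium). In left atrium no other neutrophil marker passed 6.05 CPM. The part of these cells in the differences of the members was not tested. The remaining lists, each found whole, were atrial muscle (5 genes; 14600, 9550 and 77.5 CPM), ventricular muscle (3; 3230, 4280 and 7410), skeletal muscle (6; 807, 988 and 1700), thymus and T cells (6; 6.02, 6.46 and 3.04) and cartilage and bone (6; 5.64, 4.43 and 0.818). In the skeletal muscle list Ckm held most of the sum, with medians of 707, 881 and 1640 CPM. None of Acta1, Myh1, Myh2, Myh4 and Tnnt3 had its highest median in ventricle.

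Among genes that act around the members, lower calls in ventricle also outnumbered higher ones. Of 39 tested activators, receptors and other inhibitors of matrix proteases, 20 were lower and 3 higher in ventricle than right atrium (edgeR, adjusted p under 0.05), with a median log2 fold change of -0.26 against -0.03 over all genes, of which 16.3% were called lower and 13.6% higher. Within labels 23 of 40 were lower and 5 higher, against 24.9% and 21.9% of all genes. Those of smallest p were the proteoglycan Spock2 (-1.58 ± 0.30), the protease trap A2m (-3.44 ± 0.66) and the cysteine protease Ctss (-0.74 ± 0.15). Of 38 tested matrix substrates, 12 were lower and 1 higher (19 and 3 within labels), with a median of -0.35, led by Comp (-1.78 ± 0.38), Dcn (-0.56 ± 0.12) and Col5a2 (-0.67 ± 0.15). Dcn is also one of the fibroblast markers above.

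Each exposed or Ahr-/- group was then compared with naive libraries of its sex and chamber, 3 against 3, to ask whether loss or early activation of AHR left a mark on these genes in the adult. The 18 comparisons share their naive libraries. Calls were rare. In high-dose female ventricle, where 23.7% of all 14006 genes tested were called by edgeR, 2 of 37 members were: Timp3, which fell, and Adamts7, which rose. An unadjusted p under 0.05 was found in 6 of the 37 members and 36.5% of all genes, and the libraries did not overlap in 6 members and 41.4% of all genes. In the other 17 comparisons 0 of 35 to 43 tested members were called by edgeR, with 0% to 0.0216% of all genes in each and 0.00121% together, and the smallest adjusted p of a member ran from 0.176 to 0.999. Over these 17 fits, 44 of 671 member tests had an unadjusted p under 0.05, 0 to 7 in each, against 8.16% of all gene tests. The libraries did not overlap in 78 of them, 2 to 9 in each, against 14.2% of all. DESeq2 called 1 member in them (0.696% of all), Timp3 in high-dose male right atrium (0.375%).

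Timp3 in female ventricle was at 544, 528 and 388 CPM in naive libraries and at 370, 370 and 362 in high-dose libraries. Every high-dose library lay below every naive one. Its log2 fold change was -0.42 ± 0.14 (edgeR, Benjamini-Hochberg adjusted p = 0.0381), and the call was lost without any one of 5 of the 6 libraries, with adjusted p up to 0.164, and kept without library 54. Adamts7, which cleaves cartilage oligomeric matrix protein, was at 23.2, 22.4 and 18.5 CPM in naive and at 30.5, 27.7 and 30.5 in high-dose libraries, again without overlap. It differed by 0.45 ± 0.15 (edgeR, adjusted p = 0.0432) and kept its call only without library 44 (0.0365; otherwise 0.097 to 0.131). With all ventricle groups in one fit neither was called. Cardiomyocyte markers in these libraries summed to 70500 to 88500 CPM in high-dose and 51100 to 54400 in naive, and fibroblast markers to 2470 to 2700 and 1910 to 3390, and their part was not tested.

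In the same comparison 9 of 36 matrix substrates rose and 6 fell, led by Sparc (1.05 ± 0.15), Col18a1 (1.11 ± 0.23) and Col1a2 (0.74 ± 0.16), and of 35 activators, receptors and other inhibitors 5 rose and 2 fell, led by Adam15 (0.95 ± 0.15), Serpinh1 (0.76 ± 0.15) and Pcolce (0.90 ± 0.18, edgeR adjusted p = 0.0015, 0.00386 and 0.00471 for the latter 3). The share of all genes called in this comparison, given above, stands beside both counts. Median log2 fold changes of the lists were 0.296 and 0.119, against 0.0074 over all genes. With all ventricle libraries within their labels in one fit, 1 gene of each list was called, both higher. The share of all genes called in females in that fit is given below. The median shift of all genes under scaling by library size only was -0.17, and 1 member was then called, beside a share of all genes not given here.

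Timp3 was below naive in high-dose atria as well, with overlap in female right atrium. In female left atrium it was at 968, 905 and 649 CPM in naive and at 540, 524 and 469 in high-dose libraries. These did not overlap, and all were within their labels. In female right atrium it was at 997, 502 and 594 CPM in naive and at 354, 621 and 442 in high-dose libraries. There 1 library of each group was within its labels. In male right atrium it was at 1730, 777 and 690 CPM in naive and at 391, 379 and 440 in high-dose libraries, with no overlap and a log2 fold change of -1.39 ± 0.36 (unadjusted p = 0.00362 and adjusted p = 0.687 by edgeR). In male left atrium it was at 1060, 697 and 369 CPM in naive and at 368, 316 and 253 in high-dose libraries, where the naive library at 369 and the high-dose library at 253 go against their labels (-1.18 ± 0.39, edgeR adjusted p = 0.373). In one fit of all left atrium groups Timp3 had an adjusted p of 0.268 by edgeR with all libraries, and it was called with the libraries within labels (edgeR, adjusted p = 0.0373, with 1.25% of all genes called), on 2 against 2 libraries of this comparison.

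**Figure D4:**
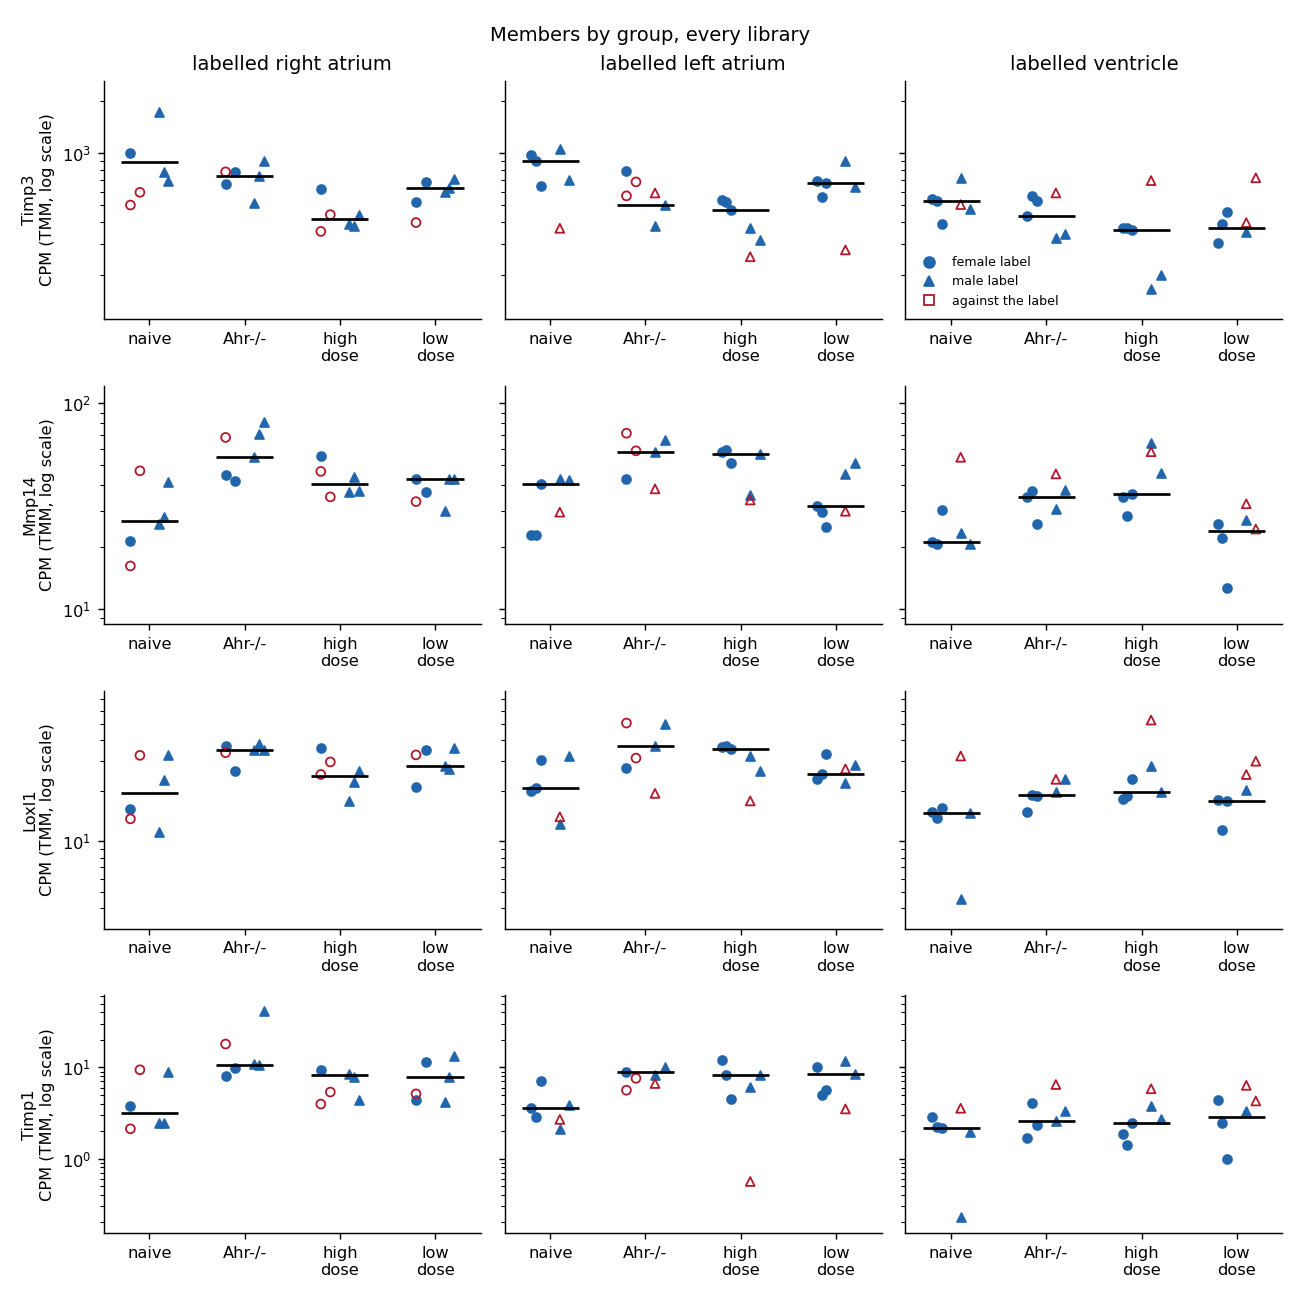
TMM-scaled CPM (log scale) of Timp3, Mmp14, Loxl1 and Timp1 in each library, by labelled chamber and group, with circles for female and triangles for male labels, open red where a library goes against its label and lines at the medians of the filled points. High-dose ventricles within their labels hold Timp3 at 166 to 370 CPM against 388 to 720 in naive ones, and Mmp14 at 28.4 to 64.3 against 20.7 to 30.2.

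With both sexes averaged (6 against 6 libraries), 1 member was called in the 9 comparisons over all libraries. Adamts5, an aggrecan- and versican-cleaving protease, fell in low-dose ventricle (-0.51 ± 0.14, edgeR Benjamini-Hochberg adjusted p = 0.0354), where 7.67% of all genes were called. Its naive ventricles were at 45.6, 34.2, 34.0, 29.4, 36.3 and 31.5 CPM and its low-dose ventricles at 32.6, 25.6, 27.0, 26.0, 20.2 and 21.9, so that only the low-dose library at 32.6 reached the naive range. Naive library 53 (34.0) and low-dose libraries 46 (25.6) and 71 (27.0) go against their labels. The call was lost without any one of 9 libraries (33, 35, 36, 46, 47, 48, 54, 71 and 72), with adjusted p up to 0.117. It was also lost without all libraries against their labels (-0.45 ± 0.19, edgeR adjusted p = 0.129). In high-dose ventricle 0 of 42 members were called with 12.7% of all genes, and Mmp25 and Mmp14 came closest (edgeR, adjusted p = 0.0699 and 0.0703; Mmp14 differed by 0.60). The other 7 comparisons gave 0 calls, with 0.0297% of all genes. An unadjusted p under 0.05 was found in 40 of 384 member tests over the 9 comparisons, 2 to 7 in each, against 15.1% of all.

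Without the libraries against their labels, high-dose ventricle gained the most calls. There 6 of the members were called, 3 higher and 3 lower, with 25.2% of all genes called, 11.4% higher and 13.9% lower. Timp3 was at 720, 475, 544, 528 and 388 CPM in the 5 naive ventricles and at 166, 198, 370, 370 and 362 in the 5 high-dose ones, with no overlap (-1.10 ± 0.15, edgeR adjusted p = 0.000253). Mmp14 was at 23.4, 20.8, 21.1, 20.7 and 30.2 CPM in naive and at 64.3, 46.1, 35.1, 28.4 and 36.1 in high-dose ventricles, overlapping in 1 library of each group (0.85 ± 0.19, edgeR adjusted p = 0.0037). These calls of Timp3 and Mmp14 held when each of the 19 ventricle libraries was left out in turn, with adjusted p up to 0.00715 and 0.038.

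The other 4 calls in high-dose ventricle within labels were lost without some of the libraries. Loxl1 (0.81, edgeR adjusted p = 0.0147) had a naive male library, 33, at 4.53 CPM against 13.8 to 15.9 in the other naive ventricles and 17.9 to 28.2 in high-dose ones. Without library 33 or 41 its call and that of Adamts12 (-2.39, edgeR adjusted p = 0.0211) were lost, with adjusted p up to 0.101 and 0.125. Adamts12, a protease related to Adamts7, was at 0 and 0.13 CPM in high-dose males and at 0.907 to 1.02 in high-dose females. Adamts2 (0.52, edgeR adjusted p = 0.0431) and Adamts6 (-1.23, edgeR adjusted p = 0.0479) lost their calls without any one of 8 and 13 libraries. Fibroblast markers summed to 2180 to 2700 CPM in these high-dose ventricles and 1780 to 3390 in naive ones, and cardiomyocyte markers to 61300 to 88500 and 38200 to 62000, and their part was not tested. In the same fit, in males alone 6 members were called (16.7% of all genes), with Timp3 at -1.74 ± 0.24 (edgeR, adjusted p = 0.00113), and in females 0 (5.62%), on 2 and 3 libraries a group.

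Other comparisons of both sexes within labels gave 4 calls, in 3 of them, and the remaining 5 gave 0 (0.00352% of all genes). In high-dose left atrium Timp3 differed by -1.06 (edgeR, adjusted p = 0.0117; 4.35% of all genes called), and in low-dose ventricle by -0.59 (edgeR, adjusted p = 0.0407; 8.33%), the latter lost without any one of 11 libraries. In Ahr-/- ventricle Adamts2 was higher by 0.79 (edgeR, adjusted p = 0.0208) and Adamts6 lower (-1.49, edgeR adjusted p = 0.0479), with 7.72% of all genes called. Adamts2 was at 9.30 to 18.2 CPM in the 5 naive and 20.5 to 31.7 in the 5 Ahr-/- ventricles, with no overlap. Its call was lost without library 33, 37 or 60, and that of Adamts6 without any one of 14 libraries.

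**Figure D5:**
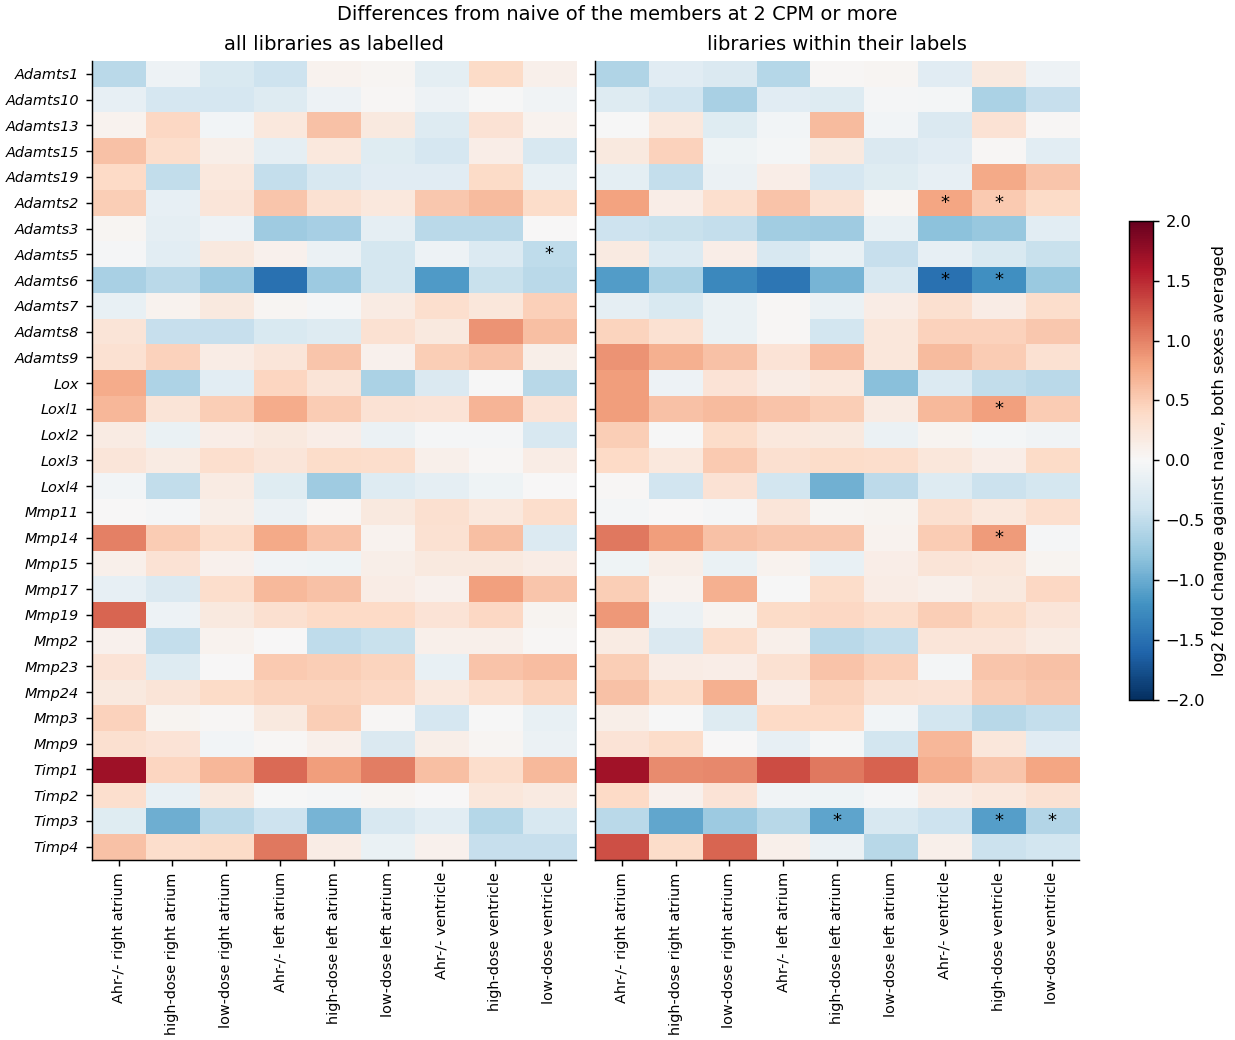
Log2 fold change against naive with both sexes averaged, for the 31 members with a median of at least 2 CPM, over all libraries (left) and those within their labels (right), clipped at 2 in color, with stars at an adjusted p under 0.05. Timp3 is below naive and Timp1 above it in all 9 columns of both panels, and stars stand in 1 cell on the left and 9 on the right.

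Timp1 was above naive in each of the 9 comparisons of both sexes over all libraries, by 0.36 to 1.70 on the log2 scale, and was called in none by edgeR, whereas DESeq2 called it in Ahr-/- right atrium (0.497% of all genes). In Ahr-/- male right atrium it was at 10.9, 10.6 and 41.1 CPM, against 2.44, 2.46 and 8.97 in naive libraries, with no overlap. In Ahr-/- male left atrium it differed by 1.52 ± 0.34 (edgeR, adjusted p = 0.928), with 1 library of each group against its label. Timp3 was below naive in the same 9 comparisons (-0.98 to -0.21), and DESeq2 called it in high-dose right and left atrium (0.402% and 3.40%). These comparisons share naive libraries within a chamber, so that their directions are not independent.

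Proteases with the smallest p in Ahr-/- mice were mostly higher and not called. In Ahr-/- male right atrium Mmp14 was at 54.7, 71.3 and 81.2 CPM against 26.0, 27.9 and 41.6 in naive, with no overlap (1.12 ± 0.25, edgeR adjusted p = 0.821). The collagenase Mmp13 was there at 2.39, 3.66 and 1.45 CPM against 0.157, 0.357 and 0.669, a difference of 2.64 ± 0.66. It was at 1.55, 2.58 and 1.11 CPM in high-dose and at 1.67, 1.37 and 1.00 in low-dose male right atrium. All 3 of these groups lay above the same 3 naive libraries. In Ahr-/- female right atrium Mmp19 was at 31.4, 23.3 and 44.0 CPM against 16.0, 8.35 and 15.4 (1.31 ± 0.32, edgeR adjusted p = 0.817). The naive libraries at 8.35 and 15.4 and the Ahr-/- library at 44.0 go against their labels, and the difference within labels was 0.77. In Ahr-/- female left atrium Lox and Mmp14 differed by 1.19 ± 0.32 and 1.00 ± 0.28 (edgeR, adjusted p = 0.359 for both), with 2 of the 3 Ahr-/- libraries against their labels.

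Between the sexes, Lox alone was called. In ventricle it was at 4.68 to 23.4 CPM (median 7.01) in 12 male and at 1.79 to 6.81 (2.92) in 12 female libraries, ranges that overlapped. Male libraries were higher by 1.54 ± 0.27 (edgeR, Benjamini-Hochberg adjusted p = 0.0305), where 0.105% of all genes were called. The 5 libraries labelled ventricle with high Myl4 were all labelled male, and Lox was higher in right atrium than in ventricle. Sex and chamber are therefore mixed in this comparison, and their parts were not tested. Without the libraries against their labels, 7 male ventricles (4.68 to 20.5 CPM, median 6.38) and all 12 female ones remain. The difference was then 1.28 with an adjusted p of 0.0543 by edgeR (0.278% of all genes called). No member was called between the sexes in either atrium (0.05% of all genes), where 11 of 86 member tests had an unadjusted p under 0.05, against 6.28% of all. Whether the change from naive differed between the sexes was tested directly in 9 contrasts, and no member was called by edgeR (0% of all genes) or DESeq2 (0.00663%). An unadjusted p under 0.05 was found in 7 of 384 member tests, against 2.36% of all. No member was called by edgeR without the libraries against their labels.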

How the data were processed

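RNA of each chamber was sequenced by the authors as TruSeq poly-A libraries. Per the study's methods and the labels, reads were demultiplexed with CASAVA 1.8 and bcl2fastq, aligned to mm10 with TopHat and counted on each gene's coding region with Bioconductor packages. Annotation release, strandedness and treatment of multi-mapping reads are not given in the sources used here. The deposited values are raw counts per Entrez gene, without normalization, and 82 genes for which no symbol was found (3.91% of counts) were kept in library sizes and tests. Totals were 11873417 to 28789382 counts, so the spread between libraries, not counting error, sets the precision of all but the rarest genes.

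Samples were grouped by the labels. Genes were filtered with filterByExpr (minimum count 10, minimum total 15), scaled with TMM and tested with edgeR 4.0.16 (robust quasi-likelihood F test, two-sided, Benjamini-Hochberg over all genes tested) in R 4.3.3 with limma 3.58.1. A call is an adjusted p under 0.05. SE is the log2 fold change divided by the root of F. Comparisons with naive were 18 separate fits of 3 against 3, as in the study. Contrasts of both sexes, sexes and interactions used the 24 libraries of a chamber, and chambers all 72. Fits without the libraries against their labels used all remaining libraries of a chamber, or of the series for chambers. A label was judged by Myl4 at 200 CPM and by Xist against Y-linked genes. Member levels are TMM-scaled CPM over the 72 libraries, and marker sums are CPM of whole libraries. Lengths are of GENCODE exons on GRCm38, and promoters of RefSeq on GRCm38.p6.

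The members, gene lists and rules were chosen with earlier results of these data known. Named with statistics were members with an adjusted p under 0.05, up to 10 a comparison by p, the 2 of smallest p where none was called, the 3 of highest level per length in each family, and up to 3 genes of other lists. Mmp13, Mmp24, Adamts9, Mmp15 and the calls within labels beyond these were chosen after their values were seen. Alternatives were RLE and library-size scaling, no filter, a term for the library series, DESeq2 1.42.0, an adjusted p of 0.0001 (the study's threshold), libraries 1 to 48, without libraries against their labels, naive libraries only and each library left out. Naive libraries within their labels, and leaving out each ventricle library within its label, were added after seeing the data. Of 72 replicate pairs, none agreed within sampling noise (chi-square per gene at least 7.69). The tests were run on simulated counts of independent libraries, without label errors or shared hearts. For high-dose female ventricle, 65 of 100 genes with a log2 change of 1 were recovered, and 91 of 100 with a change of 2. For ventricle against right atrium these were 88 and 100. Unchanged genes called were 12 and 13 in the 2 settings. Smaller changes were not simulated.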

Additional observations from a re-analysis of the deposited data

How the results depend on the processing

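In high-dose female ventricle the 2 calls became 1 with scaling by library size or no filter on low counts, 4 with a term for the library series, 0 at an adjusted p under 0.0001 and 0 with all ventricle groups in one fit, both with all libraries and without those against their labels, none of which belongs to this comparison; leaving out each library gave 0 to 4 (0 without 35, 36 or 66, 1 without 43, 4 without 54). The other 17 comparisons, with 0 calls, gave 1 by DESeq2, 0 with all groups of a chamber in one fit, 8 in that fit without the libraries against their labels and 16 on libraries 1 to 48, and 0 to 1 with each library left out (1 without 39 or 58). With both sexes averaged the 1 call became 7 by DESeq2, 10 without the libraries against their labels, 24 on libraries 1 to 48 and 0 at 0.0001, and 0 to 4 with each library left out (0 without 33, 35, 36, 46, 47, 48, 71 or 72, and 2 to 4 without 50, 53, 60, 65 or 69). Ventricle against right atrium (22) gave 2 at 0.0001, 0 in naive libraries and 10 in naive libraries within their labels, an alternative chosen after seeing the data. Ventricle against left atrium (17) gave 30 without the libraries against their labels, 26 on libraries 1 to 48, 0 at 0.0001, 0 in naive libraries and 10 in those within their labels. The call between the sexes became 3 by DESeq2 and 0 without the libraries against their labels, on libraries 1 to 48 and at 0.0001. Interactions gave 1 on libraries 1 to 48. The cause of these shifts was not tested. The share of all genes called also moves with the setting, and for libraries 1 to 48 it is not given here. These counts are therefore no result about the members. Of 1387 alternatives for 98 results of single members, 1299 kept direction and side of the threshold, 25 passed it, 61 lost it and 2 turned sign: Adamts4 between the sexes in right atrium (0.85 without the libraries against their labels) and Loxl4 between the atria (-0.15 in naive libraries within their labels). Results that were not called are among the 98, and for them staying uncalled counts as kept. Single calls could be less stable, as given above for Timp3, Adamts7 and Adamts5. No paired analysis was possible because the labels number libraries singly and share no replicate number between groups. With 3 libraries a group, and 1 left in some groups without those against their labels, a lone library is assumed to vary like the others.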
